A study of Mus musculus with 8 samples.

Results

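A set of 9 effector and lysosomal genes of monocytes and macrophages was followed across 4 sorted populations of mouse bone marrow progenitors. They are Mpeg1, Ctss, Ly86, F13a1, Cybb, Lgals3, Cd68, Lyz2 and Clec12a, taken by gene symbol from the 24411 genes of the deposited tables. All 9 were measured and all 9 passed the filter on low counts. RNA came from wild-type C57BL/6 mice, as 8 libraries with 2 for each population. Per the labels every population expressed KIT, the stem cell factor receptor, and lacked the Fc receptors CD16/32. The CD41/CD9-negative population was CD34dim and lacked CD41 and CD9. The CD34bright population carried CD41 and CD9. The CD48bright and CD48dim populations were both CD34dim and positive for CD41 and CD9, and were parted by their level of CD48. All 4 are subpopulations of the common myeloid progenitor, a bone marrow cell stage upstream of the granulocyte, monocyte, red cell and platelet lineages. Whether replicate libraries stem from different animals is not stated in the labels. The p-values therefore reflect the scatter among these libraries alone, and that scatter may be technical.

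Monocytes leave the bone marrow already equipped for phagocytosis. Engulfed microbes meet a membrane oxidase that makes superoxide, lysozyme that cuts bacterial cell walls, pore-forming proteins, and lysosomal proteases that also prepare peptides for presentation. Surface lectins and Toll-like receptor partners sense the cargo and set the strength of the response. In the marrow these genes are switched on as progenitors commit to the monocyte and dendritic cell branch, and several are also used by neutrophils or B cells.

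The libraries held 7237587 to 20632005 expected counts each. The 2 libraries of CD48dim stood apart from each other. Their gene levels had a Spearman correlation of 0.836, against 0.954 to 0.976 within the other 3 populations, and CD48dim replicate 2 had the smallest total and the highest level of Malat1, a nuclear RNA. Its Malat1 level was 38947 CPM, against 5004 to 14867 CPM in the other 7 libraries. For Mpeg1, Ctss, Ly86, F13a1, Cd68 and Lgals3 the difference of CD41/CD9-negative from CD48dim cells is therefore also given without that library. Itga2b, the gene of CD41, followed the sort, with 2.83 and 2.18 CPM in CD41/CD9-negative, 75.7 and 104 CPM in CD34bright, 93.8 and 64.3 CPM in CD48bright, and 155 and 112 CPM in CD48dim. Levels are CPM, counts scaled to a common library total, unless TPM, which also divides by transcript length, is named.

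Of the 9 genes, 5 had their highest level in both CD41/CD9-negative libraries and their lowest in both CD48dim libraries. Of these, Mpeg1, Ctss, Ly86 and F13a1 passed the test of any difference and are named the 4 graded genes here. Cd68 had the same order in CPM but did not pass. Cybb was also highest in CD41/CD9-negative cells but lowest in CD34bright cells. Lgals3 and Cd68 had their highest levels in CD41/CD9-negative cells without passing the test, and Lyz2 and Clec12a varied as much between replicates as between populations. In edgeR's quasi-likelihood test of any difference among the 4 populations, 5 of the 9 genes were called at an adjusted p below 0.05, against 2.44% of the 13177 genes tested. These were Mpeg1, Ly86, F13a1, Ctss and Cybb. In 7 of the 9 genes both CD41/CD9-negative libraries lay above the other 6, against 8.1% of all tested genes, and in 5 both CD48dim libraries lay below the other 6, against 11.6%. In bulk RNA, fewer cells expressing a gene and less RNA of it per cell cannot be told apart.

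**Figure D1:**
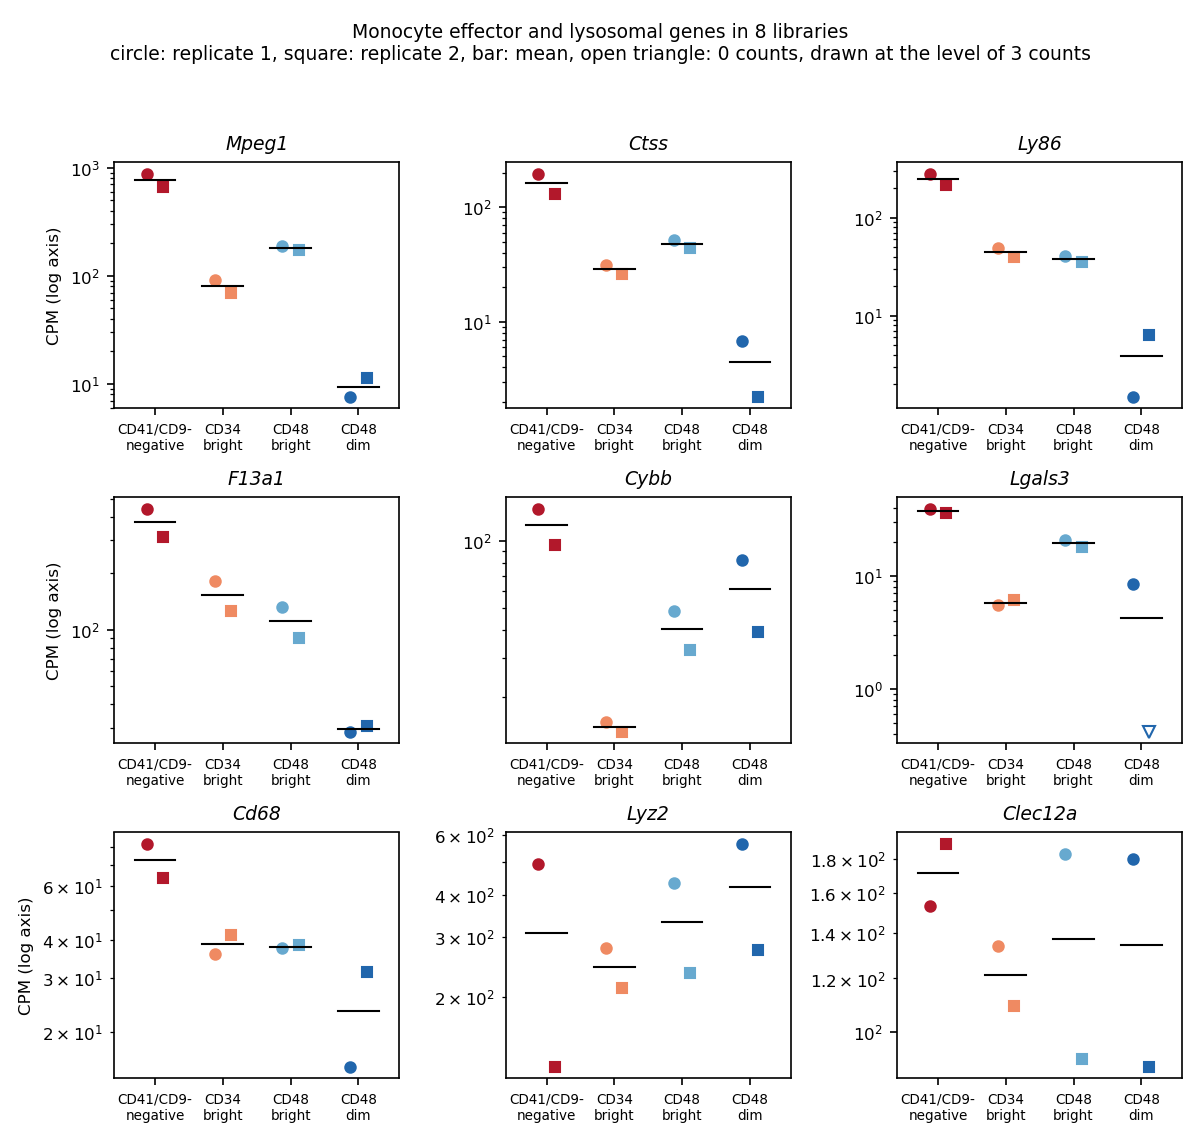
Level of each of the 9 genes in CPM (log axis) in the 8 libraries, with the populations from left to right as CD41/CD9-negative, CD34bright, CD48bright and CD48dim. Circles are replicate 1, squares replicate 2, bars the mean of both, and the open triangle marks the CD48dim library with 0 counts of Lgals3, drawn at the level of 3 counts. In Mpeg1, Ctss, Ly86, F13a1 and Cd68 both CD48dim libraries lie below the other 6.

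Between CD41/CD9-negative and CD48dim cells, 4 of the 9 genes were called and all 4 were higher in CD41/CD9-negative cells, against 4.02% of all tested genes called and 1.98% called higher. The median log2 fold change of the 9 genes was 3.11, and that of all tested genes was -0.06. The same 4 genes were called under every alternative tried. Without CD48dim replicate 2 the median of the 9 genes was 2.24. CD34bright against CD48dim gave 3 calls, all higher in CD34bright, against 0.577% of all genes called and 0.364% called higher. CD48bright against CD48dim gave 2 calls, both higher in CD48bright, against 0.387% of all genes called and 0.273% called higher. With replicates blocked, meaning that the model also held a term for the replicate number, edgeR called 5 of the 9 in CD41/CD9-negative over CD48dim, 5 in CD34bright over CD48dim and 4 in CD48bright over CD48dim.

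The other 3 comparisons leave out CD48dim. CD41/CD9-negative against CD34bright gave 2 calls, both higher in CD41/CD9-negative, against 0.842% of all genes called and 0.577% called higher, and 5 with replicates blocked. CD41/CD9-negative against CD48bright gave 0 calls among the 9 genes by edgeR, 5 by DESeq2 and 2 by limma-voom, with 6 of the 9 at an unadjusted p below 0.05 in edgeR; 0.212% of all genes were called there. With the replicate block edgeR called 2, F13a1 and Mpeg1. CD34bright against CD48bright gave 0 calls by all 3 tools, with 2 of the 9 genes at an unadjusted p below 0.05 in edgeR, and no gene of the whole table was called by edgeR. These comparisons share libraries with one another, so their results are not independent.

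**Figure D2:**
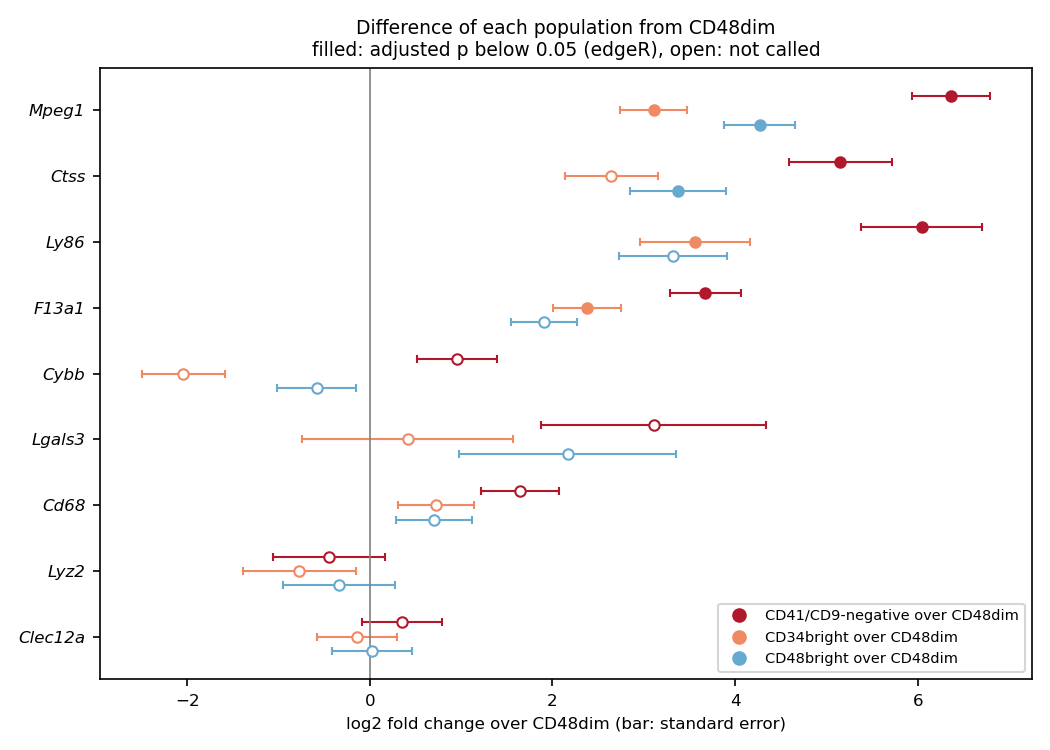
Log2 fold change of CD41/CD9-negative, CD34bright and CD48bright over CD48dim for each of the 9 genes, with bars of 1 standard error from edgeR. Filled points have an adjusted p below 0.05. Mpeg1 has the largest difference from CD48dim, 6.36 in CD41/CD9-negative cells, and the points of Lyz2 and Clec12a lie near 0.

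Mpeg1, at chr19:12460770-12465285 in GRCm38.p6, encodes perforin-2, a pore-forming protein of phagocytes that acts on bacteria inside the phagosome. Its level was 879.9 and 664 CPM in the CD41/CD9-negative libraries, 91.3 and 70.0 CPM in CD34bright, 189 and 173 CPM in CD48bright, and 7.56 and 11.3 CPM in CD48dim. No library of any population overlapped those of another. Mpeg1 ranked first by p among all 13177 genes between CD41/CD9-negative and CD48dim cells, with a log2 fold change of 6.36 ± 0.42 (SE, edgeR adjusted p = 0.000551), and 6.67 without CD48dim replicate 2. It was also higher in CD48bright than in CD48dim cells, by 4.27 ± 0.39 on the log2 scale (edgeR adjusted p = 0.00553), and higher in CD34bright than in CD48dim cells, by 3.11 ± 0.37 (edgeR adjusted p = 0.0269). Between CD41/CD9-negative and CD34bright cells the log2 fold change was 3.26 ± 0.36 (edgeR adjusted p = 0.00888). The intermediate populations are less firmly placed. The call of CD34bright over CD48dim was lost without any 1 of the 6 libraries of CD41/CD9-negative, CD34bright and CD48bright (edgeR adjusted p = 0.0681 to 0.229). That of CD48bright over CD48dim was lost without any 1 of the 4 CD41/CD9-negative and CD48bright libraries (edgeR adjusted p = 0.05035 to 0.0702), and that of CD41/CD9-negative over CD34bright without any 1 of the 4 libraries compared (edgeR adjusted p = 0.0635 to 0.203). CD41/CD9-negative over CD48bright missed the threshold, with a log2 fold change of 2.10 ± 0.35 and an edgeR adjusted p of 0.0617, and CD34bright over CD48bright gave -1.16 ± 0.34 with an adjusted p of 1.

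Ctss, at chr3:95526786-95556405, encodes cathepsin S, a cysteine protease of endosomes and lysosomes that trims the invariant chain from MHC class II molecules. Its level was 196 and 131 CPM in CD41/CD9-negative, 31.1 and 26.4 CPM in CD34bright, 51.3 and 43.9 CPM in CD48bright, and 6.75 and 2.20 CPM in CD48dim. As for Mpeg1, the populations did not overlap and CD48bright lay above CD34bright. The log2 fold change of CD41/CD9-negative over CD48dim was 5.15 ± 0.57 (edgeR adjusted p = 0.00237), and 4.60 without CD48dim replicate 2. CD48bright over CD48dim gave 3.37 ± 0.53 (edgeR adjusted p = 0.0453), while CD34bright over CD48dim gave 2.64 ± 0.51 and missed the threshold (edgeR adjusted p = 0.0575) unless replicates were blocked (2.75, edgeR adjusted p = 0.0153). The call of CD48bright over CD48dim was lost without any 1 of the 6 libraries of CD41/CD9-negative, CD34bright and CD48bright (edgeR adjusted p = 0.0976 to 0.2545). The call for any difference was lost without CD41/CD9-negative replicate 1 or 2 (edgeR adjusted p = 0.102 and 0.0670).

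The other cathepsins did not all follow Ctss. Of 14 cathepsin genes, 13 were tested and 3 were called in the test of any difference, Ctsh, Ctss and Ctse, against 2.44% of all tested genes. Ctsh, an aminopeptidase of the lysosome, had 217 and 120.0 CPM in CD41/CD9-negative, 22.9 and 21.1 CPM in CD34bright, 54.8 and 46.2 CPM in CD48bright, and 12.7 and 10.2 CPM in CD48dim. Its CD41/CD9-negative libraries lay above all others, with a log2 fold change over CD48dim of 3.88 ± 0.42 (edgeR adjusted p = 0.00224). Ctse, an aspartic protease, ran the other way. It had 53.4 and 29.9 CPM in CD41/CD9-negative, 24.9 and 25.02 CPM in CD34bright, 39.3 and 18.6 CPM in CD48bright, and 135 and 143 CPM in CD48dim, where both libraries were the highest of the 8 (edgeR adjusted p for any difference = 0.0354). Between CD41/CD9-negative and CD48dim cells the 3 cathepsins called were Ctss, Ctsh and Ctsb, all higher in CD41/CD9-negative cells, against 4.02% of all tested genes called. The median log2 fold change of the 13 tested cathepsins there was 0.66. With replicates blocked, edgeR called 5 of the 13 for any difference and 4 between CD41/CD9-negative and CD48dim cells, where Ctse became the fourth, lower in CD41/CD9-negative (log2 fold change -1.81, edgeR adjusted p = 0.0236). DESeq2 called 6 for any difference. Over all tested genes the block and DESeq2 also called more than edgeR did alone.

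Of 27 tested genes for lysosomal membrane proteins, enzymes and their regulators, 3 were called between CD41/CD9-negative and CD48dim cells, against 4.02% of all tested genes. Psap, which encodes the precursor of the saposins, and Asah1, acid ceramidase, were higher in CD41/CD9-negative cells, with log2 fold changes of 2.18 ± 0.45 and 1.64 ± 0.31 (edgeR adjusted p = 0.0322 and 0.0227). Cd63, a tetraspanin of lysosomes and platelet granules, was lower, with a log2 fold change of -2.90 ± 0.59 (edgeR adjusted p = 0.0309). The median over the 27 genes was 0.60. DESeq2 called 9 of them there and edgeR with replicates blocked called 7, of which 5 were higher in CD41/CD9-negative. The block and DESeq2 also called more of all tested genes there than edgeR did alone. In the test of any difference edgeR called 0 of the 27, against 2.44% of all tested genes. In that test limma-voom called 0 of the 27, DESeq2 6 and edgeR with replicates blocked 4. The block and DESeq2 called more of all tested genes in that test too.

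**Figure D3:**
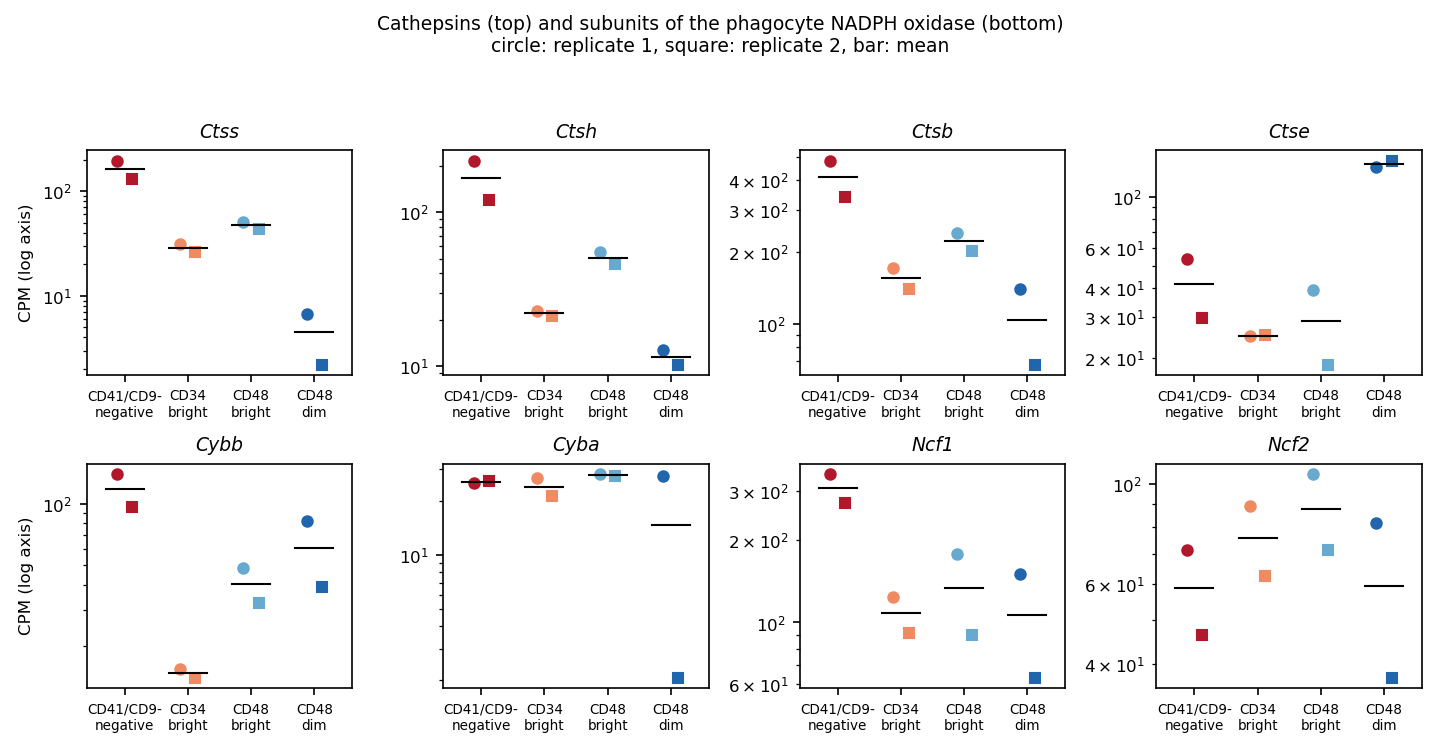
Levels in CPM (log axis) of 4 cathepsin genes (top) and 4 subunits of the phagocyte NADPH oxidase (bottom), with CD41/CD9-negative at the left and CD48dim at the right. Circles are replicate 1, squares replicate 2 and bars the mean. Ctss, Ctsh and Ctsb are highest in CD41/CD9-negative, Ctse is highest in CD48dim, and Cybb is lowest in CD34bright.

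Ly86 encodes MD-1, the secreted partner that holds the Toll-like receptor relative RP105, the product of Cd180, at the cell surface. Its level was 281 and 214 CPM in CD41/CD9-negative, 49.2 and 39.4 CPM in CD34bright, 40.1 and 34.9 CPM in CD48bright, and 1.47 and 6.32 CPM in CD48dim. CD34bright and CD48bright overlapped, while CD41/CD9-negative lay above and CD48dim below all other libraries. The CD48dim values rest on 20 and 46 counts. The log2 fold change of CD41/CD9-negative over CD48dim was 6.04 ± 0.66 (edgeR adjusted p = 0.00237), and 7.39 without CD48dim replicate 2. CD34bright over CD48dim gave 3.56 ± 0.60 (edgeR adjusted p = 0.0418), and CD48bright over CD48dim gave 3.32 ± 0.59 and missed the threshold (edgeR adjusted p = 0.0643). With the replicate block CD48bright over CD48dim was 3.38 and passed (edgeR adjusted p = 0.0340). Leaving out any 1 of the 6 libraries of CD41/CD9-negative, CD34bright and CD48bright ended the call of CD34bright over CD48dim (edgeR adjusted p = 0.0972 to 0.249). Leaving out CD41/CD9-negative replicate 1 or 2 ended the call for any difference (edgeR adjusted p = 0.0904 and 0.0670).

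Of 9 Toll-like receptor and partner genes, Ly86 among them, 4 were called in the test of any difference, against 2.44% of all tested genes. Between CD41/CD9-negative and CD48dim cells 4 were called as well, all 4 higher in CD41/CD9-negative, against 4.02% of all tested genes called. The other 3 were Tlr7 and Tlr9, endosomal receptors for RNA and DNA, and Unc93b1, the chaperone that carries them to the endosome. Unc93b1 had 206 and 170 CPM in CD41/CD9-negative, 60.4 and 50.1 CPM in CD34bright, 56.1 and 77.7 CPM in CD48bright, and 24.2 and 26.7 CPM in CD48dim (edgeR adjusted p = 0.0121). Tlr9 had 58.9 and 40.2 CPM in CD41/CD9-negative, 2.78 and 1.99 CPM in CD34bright, 8.79 and 12.1 CPM in CD48bright, and 0.734 and 0 CPM in CD48dim (edgeR adjusted p = 0.0187). Tlr7 had 85.9 and 97.6 CPM in CD41/CD9-negative, and its highest value in the other 6 libraries was 9.23 CPM (edgeR adjusted p = 0.0256). Both receptors and their chaperone had their highest levels in the same libraries as Ly86. Cd180, the receptor that Ly86 serves, was not called. It had 384 and 740.3 CPM in CD41/CD9-negative, 103 and 198 CPM in CD34bright, 117 and 276 CPM in CD48bright, and 53.1 and 349 CPM in CD48dim, with replicate 2 above replicate 1 in each population. Its log2 fold change of CD41/CD9-negative over CD48dim was 1.48 ± 0.79 (edgeR adjusted p = 0.342). It passed with the replicate block, at 1.85 (edgeR adjusted p = 0.0338).

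F13a1 encodes the catalytic A subunit of coagulation factor XIII, a transglutaminase that cross-links fibrin and is made by monocytes and macrophages and by megakaryocytes. Its level was 442 and 312 CPM in CD41/CD9-negative, 181 and 126 CPM in CD34bright, 132 and 89.8 CPM in CD48bright, and 28.4 and 30.8 CPM in CD48dim. CD34bright and CD48bright overlapped. The log2 fold change of CD41/CD9-negative over CD48dim was 3.67 ± 0.39 (edgeR adjusted p = 0.00213), and 3.73 without CD48dim replicate 2. CD34bright over CD48dim gave 2.38 ± 0.37 (edgeR adjusted p = 0.0374), and CD48bright over CD48dim gave 1.91 ± 0.36 and was not called (edgeR adjusted p = 0.0769). The replicate block gave 1.87, which passed (edgeR adjusted p = 0.0227). As for Ly86, the call of CD34bright over CD48dim ended without any 1 of the 6 libraries outside CD48dim (edgeR adjusted p = 0.0746 to 0.266), and that for any difference without CD41/CD9-negative replicate 1 or 2 (edgeR adjusted p = 0.0889 and 0.0624). Genes of megakaryocytes and platelets ran the other way. The summed level of 11 such genes was 61.1 and 54.1 CPM in CD41/CD9-negative, 221 and 333 CPM in CD34bright, 241 and 240.2 CPM in CD48bright, and 923 and 938 CPM in CD48dim. Of the 10 tested, 6 were called lower in CD41/CD9-negative than in CD48dim cells by edgeR and 3 by limma-voom. Itga2b, the gene of CD41, is part of the sum and of the 10 tested. The populations were sorted on CD41, so the difference in Itga2b is not an independent result. In that comparison edgeR called 4.02% of all tested genes. Pf4 and Ppbp were at 0 counts in both CD41/CD9-negative libraries.

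F13a1 and Ly86 are neighbours. In the RefSeq annotation of GRCm38.p6, F13a1 lies on the minus strand at chr13:36867178-37050244 and Ly86 on the plus strand at chr13:37345345-37419036. They point away from each other across a gap of 295.1 kb that holds 0 other protein-coding genes and 4 other annotated genes. Their order over the 8 libraries was identical, with a Spearman rho of 1 and a Pearson r of 0.97 on the log2 scale. The protein-coding neighbours within 500 kb did not share the difference. Rreb1, a zinc finger factor, had a log2 fold change of CD41/CD9-negative over CD48dim of -0.91 (edgeR adjusted p = 0.166), and Fars2, a mitochondrial tRNA synthetase, had -0.02 (edgeR adjusted p = 0.993). Nrn1 had too few counts to be tested.

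The sequences just upstream of the 4 graded genes, a group picked by its levels in these libraries, are shown. Each is the 250 bases before the RefSeq start, 5′ to 3′ on the gene's own strand, from GRCm38.p6. They cover chr19:12460520-12460769 (plus strand) for Mpeg1, chr3:95526536-95526785 (plus strand) for Ctss, chr13:37345095-37345344 (plus strand) for Ly86, and chr13:37050245-37050494 (minus strand) for F13a1. F13a1 has a second RefSeq start, whose window at chr13:37049214-37049463 is not shown and holds none of the cores searched. Capitals mark GAGGAA, a core of the site bound by the myeloid factor PU.1, and, further downstream in Ctss, a core of the interferon response element, GAAA repeated after a spacer of 2 bases. Both were searched on both strands.
Mpeg1: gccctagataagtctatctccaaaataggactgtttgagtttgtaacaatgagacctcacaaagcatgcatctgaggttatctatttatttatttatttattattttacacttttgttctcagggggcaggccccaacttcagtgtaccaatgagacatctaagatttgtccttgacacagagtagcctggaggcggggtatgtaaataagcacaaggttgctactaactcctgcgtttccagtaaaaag
Ctss: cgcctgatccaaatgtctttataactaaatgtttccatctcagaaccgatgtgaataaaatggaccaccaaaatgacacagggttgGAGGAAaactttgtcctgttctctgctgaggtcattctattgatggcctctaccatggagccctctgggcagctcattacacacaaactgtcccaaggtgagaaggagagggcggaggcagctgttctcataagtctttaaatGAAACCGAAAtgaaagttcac
Ly86: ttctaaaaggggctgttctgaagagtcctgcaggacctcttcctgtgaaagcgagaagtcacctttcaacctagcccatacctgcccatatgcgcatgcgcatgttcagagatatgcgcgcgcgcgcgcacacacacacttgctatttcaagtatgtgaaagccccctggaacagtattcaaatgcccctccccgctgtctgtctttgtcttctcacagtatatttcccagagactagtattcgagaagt
F13a1: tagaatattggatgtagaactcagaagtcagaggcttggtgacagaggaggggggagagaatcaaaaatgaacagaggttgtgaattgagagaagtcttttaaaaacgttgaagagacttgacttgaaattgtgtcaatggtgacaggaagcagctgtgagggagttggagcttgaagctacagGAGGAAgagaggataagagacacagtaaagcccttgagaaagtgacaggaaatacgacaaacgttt
The 9 genes have 10 such windows, 2 of them of F13a1. GAGGAA was found in 4 of the 10, those of Ctss, Clec12a and Cd68 and the one shown for F13a1, against 23.3% of 32851 promoters of the same length. The interferon response core was found in 2 of the 10, of Ctss and Cybb, against 2.98% of promoters. TTGCNNAA, a core of the C/EBP site, was found in 2 of the 10, of Clec12a and Cd68, against 9.56% of promoters. The windows shown for Mpeg1 and Ly86 hold none of the 3 cores, and a match is a description of the letters only.

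Cybb, at chrX:9435252-9487766, encodes the catalytic, electron-carrying subunit of the phagocyte NADPH oxidase, which makes superoxide. Its level was 139 and 96.1 CPM in CD41/CD9-negative, 15.5 and 14.0 CPM in CD34bright, 48.6 and 32.6 CPM in CD48bright, and 82.4 and 39.0 CPM in CD48dim. Both CD34bright libraries lay below the other 6, and CD48bright overlapped CD48dim. The test of any difference gave an edgeR adjusted p of 0.0373. CD41/CD9-negative over CD34bright gave a log2 fold change of 2.99 ± 0.47 (edgeR adjusted p = 0.0270), and no other pair was called for Cybb by edgeR with all libraries and no replicate block. Both calls were lost without any 1 of the 6 libraries outside CD48dim (edgeR adjusted p = 0.0562 to 0.316 for the pair and 0.0815 to 0.2365 for any difference). CD34bright over CD48dim gave -2.04 ± 0.45 (edgeR adjusted p = 0.0770), or -1.95 with the replicate block, which passed (edgeR adjusted p = 0.0204), and CD41/CD9-negative over CD48dim gave 0.95 ± 0.44 (edgeR adjusted p = 0.269).

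Of the 7 tested oxidase genes, edgeR called Cybb alone in the test of any difference, against 2.44% of all tested genes. DESeq2 called 2 there, limma-voom 0, and edgeR 2 with replicates blocked. Cyba, its partner in the membrane complex, had 25.1 and 25.8 CPM in CD41/CD9-negative, 26.7 and 21.1 CPM in CD34bright, 28.1 and 27.4 CPM in CD48bright, and 27.4 and 2.06 CPM in CD48dim. Of its 8 values, 7 lay between 21.1 and 28.1 CPM, and CD48dim replicate 2 was the exception. Ncf1, a cytosolic organiser of the complex, had 345 and 272 CPM in CD41/CD9-negative, 124 and 91.8 CPM in CD34bright, 177 and 90.0 CPM in CD48bright, and 150.3 and 62.8 CPM in CD48dim. Its CD41/CD9-negative libraries were the highest, with a log2 fold change over CD48dim of 1.53 ± 0.48 that missed the threshold (edgeR adjusted p = 0.124). Ncf1 passed with the replicate block, at 1.65 (edgeR adjusted p = 0.0142).

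Lgals3, at chr14:47373860-47386167, encodes galectin-3, a sugar-binding protein abundant in macrophages. Its level was 39.3 and 35.7 CPM in CD41/CD9-negative, 5.47 and 6.11 CPM in CD34bright, 21.0 and 18.1 CPM in CD48bright, and 8.44 and 0 CPM in CD48dim. The CD41/CD9-negative and CD48bright libraries did not overlap with any other, while the CD48dim replicates lay on either side of CD34bright. The empty library held 0 counts of Lgals3, which allows up to 0.412 CPM at 3 counts, a limit for counting error only. The edgeR adjusted p was 0.363 for any difference and 0.207 for CD41/CD9-negative over CD48dim, with a log2 fold change of 3.11 ± 1.23. Without CD48dim replicate 2 that comparison gave 2.15 (edgeR adjusted p = 0.0200). A list of 6 tested genes held Lgals3, other galectins and Lgals3bp, which encodes a galectin-3-binding protein. In the test of any difference 0 of the 6 were called by edgeR, 0 by limma-voom and 3 by DESeq2, and 3 had an unadjusted p below 0.05 in edgeR. There edgeR called 2.44% of all tested genes. With the replicate block edgeR called 2.

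Cd68, at chr11:69664213-69666170, encodes a heavily glycosylated membrane protein of late endosomes and lysosomes that is used as a macrophage marker. Its level was 82.2 and 63.7 CPM in CD41/CD9-negative, 35.9 and 41.4 CPM in CD34bright, 37.6 and 38.5 CPM in CD48bright, and 15.4 and 31.5 CPM in CD48dim. Both CD41/CD9-negative libraries lay above, and both CD48dim libraries below, the other 4. The log2 fold change of CD41/CD9-negative over CD48dim was 1.64 ± 0.43 and missed the threshold (edgeR adjusted p = 0.0693). Without CD48dim replicate 2 it was 2.24 and passed (edgeR adjusted p = 0.00605), and with the replicate block it was 1.69 and passed (edgeR adjusted p = 0.0380). In TPM it had 149 and 126 in CD41/CD9-negative, 52.3 and 71.9 in CD34bright, 61.0 and 79.6 in CD48bright, and 32.9 and 80.1 in CD48dim. On that scale CD48dim replicate 2 lay above the CD34bright and CD48bright libraries.

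Lyz2, at chr10:117277541-117282272, encodes lysozyme M, the enzyme that cuts peptidoglycan and is used by monocytes, macrophages and neutrophils alike. Its level was 491 and 124 CPM in CD41/CD9-negative, 279 and 213 CPM in CD34bright, 432 and 235 CPM in CD48bright, and 565 and 276 CPM in CD48dim. Replicate 1 lay above replicate 2 in each population, and all populations overlapped with CD41/CD9-negative. The edgeR adjusted p for any difference was 0.898, and the log2 fold change of CD41/CD9-negative over CD48dim was -0.45 ± 0.61 (edgeR adjusted p = 0.746). Its close copy Lyz1, with which it could share reads, had 0 counts in 7 libraries and 0.0914 CPM in CD48bright replicate 2.

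The summed level of 10 genes of mature neutrophils was higher in replicate 1 than in replicate 2 in 3 of the 4 populations. It was 702 and 49.9 CPM in CD41/CD9-negative, 131 and 166 CPM in CD34bright, 157 and 115 CPM in CD48bright, and 4175 and 625 CPM in CD48dim, and none of the 10 was at 0 in any library. In the test of any difference edgeR called 2 of the 10, Cxcr2 and S100a8, against 2.44% of all tested genes. With replicates blocked it called 6, while DESeq2 called 10 and limma-voom 1. Over all tested genes the block and DESeq2 also called more than edgeR did alone, and limma-voom fewer. Cxcr2, a chemokine receptor of neutrophils, had 8.34 and 4.76 CPM in CD41/CD9-negative, 55.8 and 86.9 CPM in CD34bright, 26.8 and 43.9 CPM in CD48bright, and 11.1 and 11.3 CPM in CD48dim. It was highest in CD34bright, and its replicates did not follow those of Lyz2 in CD34bright, CD48bright or CD48dim. S100a8, a calcium-binding protein of neutrophils, had 125 and 11.5 CPM in CD41/CD9-negative, 9.44 and 14.1 CPM in CD34bright, 26.2 and 17.6 CPM in CD48bright, and 989.6 and 190.5 CPM in CD48dim. The summed level of 7 primary granule genes was 4142 and 2933 CPM in CD41/CD9-negative, 20472 and 16014 CPM in CD34bright, 20598 and 8483 CPM in CD48bright, and 14625 and 3862 CPM in CD48dim. Lyz2 was higher in replicate 1 in all 4 populations, but so was the summed level of the other 8 of the 9 genes. That sum was 2213 and 1706 CPM in CD41/CD9-negative, 544 and 432 CPM in CD34bright, 702 and 522 CPM in CD48bright, and 330 and 210 CPM in CD48dim. The part of neutrophil RNA in the Lyz2 values was not tested.

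Clec12a, at chr6:129349783-129365303, encodes an inhibitory C-type lectin receptor of myeloid cells that recognises uric acid crystals and dead cells. Its level was 153 and 189 CPM in CD41/CD9-negative, 134 and 109 CPM in CD34bright, 183 and 91.3 CPM in CD48bright, and 179.9 and 88.9 CPM in CD48dim. The CD48bright and CD48dim replicates spanned nearly the whole range of the gene. The edgeR adjusted p for any difference was 0.920, and the log2 fold change of CD41/CD9-negative over CD48dim was 0.35 ± 0.44 (edgeR adjusted p = 0.722). Of 10 tested myeloid lectin genes, Clec12a among them, 3 were called between CD41/CD9-negative and CD48dim cells, against 4.02% of all tested genes. Clec7a, the beta-glucan receptor Dectin-1, and Clec9a, a receptor of dendritic cells for dead cells, were higher in CD41/CD9-negative, with log2 fold changes of 3.58 ± 0.66 and 5.85 ± 1.13 (edgeR adjusted p = 0.0201 and 0.0243). Clec4d was lower, with a log2 fold change of -5.33 ± 0.94 (edgeR adjusted p = 0.0174). Low counts limit the size of 2 of these differences. Clec9a rests on 1 and 20 counts in CD48dim, and Clec4d on 6 and 2 counts in CD41/CD9-negative.

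The signalling partners of such lectins were tested as 6 genes, of which 2 were called between CD41/CD9-negative and CD48dim cells, against 4.02% of all tested genes. Fcer1g, an adaptor that carries an activating motif, had 270.5 and 295 CPM in CD41/CD9-negative, 106 and 105 CPM in CD34bright, 129 and 149.9 CPM in CD48bright, and 40.7 and 63.5 CPM in CD48dim. Its CD41/CD9-negative libraries were the highest, 2.44 ± 0.34 over CD48dim on the log2 scale (edgeR adjusted p = 0.00662). Tyrobp, the adaptor also known as DAP12, had a log2 fold change of 3.72 ± 0.86 (edgeR adjusted p = 0.0460). Its level was 184 and 237 CPM in CD41/CD9-negative, and 29.0 and 2.47 CPM in CD48dim, where the replicates lay far apart. The value of CD48dim replicate 2 rests on 18 counts. In the test of any difference edgeR called 1 of the 6, Fcer1g, against 2.44% of all tested genes.

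Per transcript length, the order of the 9 genes changed between populations. Lyz2 was the highest in all 4, with means of 702 ± 564 TPM in CD41/CD9-negative, 477 ± 29.6 TPM in CD34bright, 718 ± 213 TPM in CD48bright and 1027 ± 229 TPM in CD48dim (SD, n = 2 each). Ly86 was second in CD41/CD9-negative, at 622 ± 82.6 TPM, which did not differ from Lyz2 beyond the spread, and Clec12a was second in the other 3. Mpeg1 came next in CD41/CD9-negative, at 356 ± 45.2 TPM, and last in CD48dim, at 5.12 ± 2.74 TPM. Cybb was last in the other 3 populations, at 49.1 ± 9.22 TPM in CD41/CD9-negative, 5.19 ± 0.276 TPM in CD34bright and 15.9 ± 2.11 TPM in CD48bright. In CD48dim, Ly86, Ctss, Lgals3 and Mpeg1 had means of 12.4 ± 12.8, 7.72 ± 3.78, 6.38 ± 9.02 and 5.12 ± 2.74 TPM, neighbours that did not differ beyond their spread.

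**Figure D4:**
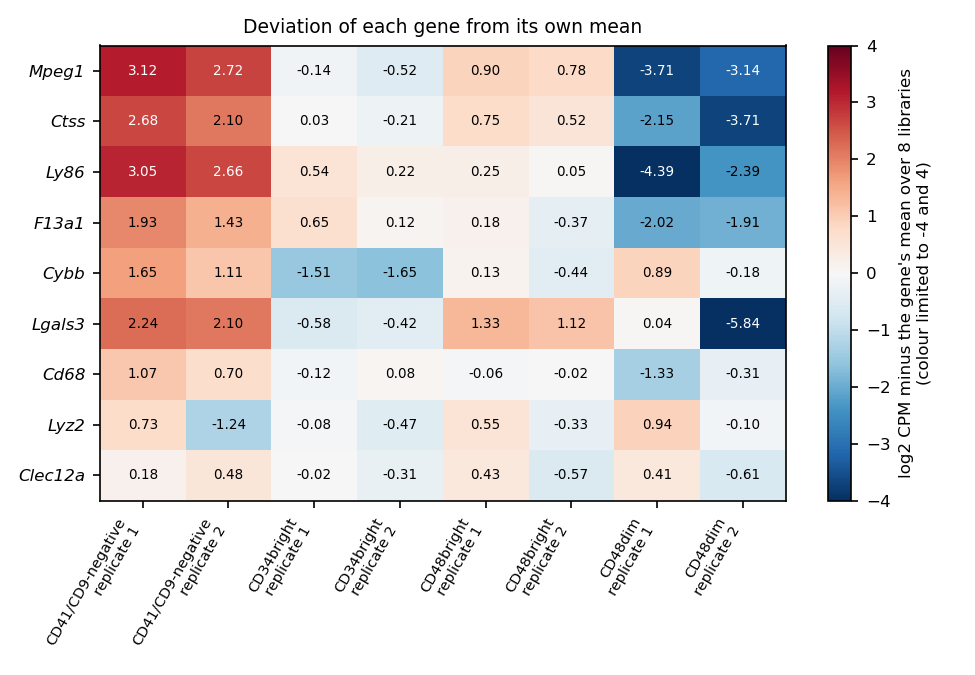
Log2 CPM of each gene minus its own mean over the 8 libraries, one column per library, with the CD41/CD9-negative libraries at the left and CD48dim at the right. Red is above and blue below the gene's mean, and the colour scale stops at -4 and 4. Mpeg1, Ctss, Ly86 and F13a1 are red in both CD41/CD9-negative columns and blue in both CD48dim columns, with Mpeg1 and Ctss higher in CD48bright than in CD34bright, while Lyz2 and Clec12a differ as much between replicates as between populations.

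Among themselves the 9 genes made 36 pairs. Over the 8 libraries, which share their population in groups of 2, the Pearson r of log2 CPM was positive in 31 pairs, with a median of 0.41 and a range of -0.41 to 0.97. It was over 0.8 in 10 pairs. All 6 pairs among Mpeg1, Ctss, Ly86 and F13a1 were among these, from 0.90 to 0.97. Lyz2 stood apart, with an r of -0.15 to the mean of the other 8 genes, against 0.42 to 0.93 for the other genes.

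**Figure D5:**
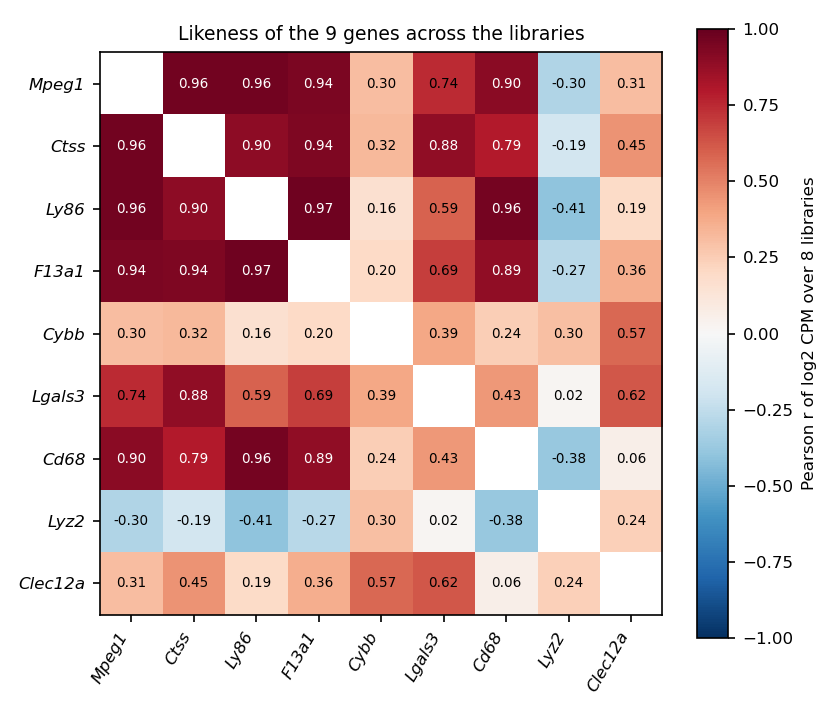
Pearson r of log2 CPM over the 8 libraries for each pair of the 9 genes, from blue (-1) to red (1). The 4 graded genes form a red block with r from 0.90 to 0.97, and the row of Lyz2 runs from -0.41 to 0.30.

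The genes most like the mean pattern of the 9 were ranked among 9086 other protein-coding genes with a mean of at least 8 CPM. The 10 nearest over the 8 libraries had a Pearson r of 0.957 to 0.985. In order they were Ctsb, St6gal1, Ctsh, Gapt, Clec7a, Ptger2, Rtn4rl1, Evl, Ezr and Ppfia4. Ctsb, the lysosomal protease cathepsin B, came first and had 483 and 341 CPM in CD41/CD9-negative, 172 and 141 CPM in CD34bright, 241 and 203 CPM in CD48bright, and 140.2 and 67.6 CPM in CD48dim. Gapt, an adaptor protein of blood cells, had 122 and 88.2 CPM in CD41/CD9-negative, 9.64 and 7.39 CPM in CD34bright, 19.6 and 19.6 CPM in CD48bright, and 8.22 and 1.24 CPM in CD48dim. Both had their highest values in CD41/CD9-negative and their lowest in CD48dim replicate 2.

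Of 21 other tested genes of the monocyte lineage, 7 were called between CD41/CD9-negative and CD48dim cells, all higher in CD41/CD9-negative, against 4.02% of all tested genes called. The same 7 were called in the test of any difference, against 2.44% of all tested genes. They were Cx3cr1, Ms4a6c, Emb, Irf8, Csf1r, Klf4 and Ms4a4c. The median log2 fold change of all 21 was 2.83. Not all had the order of the 4 graded genes. Itgam, the integrin subunit CD11b, was not called and had 116 and 106 CPM in CD41/CD9-negative, 51.6 and 30.8 CPM in CD34bright, 84.5 and 68.2 CPM in CD48bright, and 120.1 and 107 CPM in CD48dim. Ccl9, a chemokine, was not called either and had 97.0 and 77.8 CPM in CD41/CD9-negative, 293 and 231 CPM in CD34bright, 229 and 196 CPM in CD48bright, and 44.1 and 3.71 CPM in CD48dim. Both passed the test of any difference with the replicate block (edgeR adjusted p = 0.0435 for Itgam and 0.0468 for Ccl9). Between CD41/CD9-negative and CD48dim cells, edgeR with replicates blocked called 10 of the 21, limma-voom 10 and DESeq2 9, all higher in CD41/CD9-negative. The block and DESeq2 also called more of all tested genes there than edgeR did alone. Irf8, an interferon regulatory factor of the monocyte and dendritic branch, had 1104 and 820.4 CPM in CD41/CD9-negative, 143 and 141 CPM in CD34bright, 170 and 207 CPM in CD48bright, and 6.83 and 0.275 CPM in CD48dim (edgeR adjusted p for any difference = 0.0175). Cx3cr1, the fractalkine receptor, had 41.5 and 45.4 CPM in CD41/CD9-negative, 13.3 and 8.39 CPM in CD34bright, 14.6 and 12.3 CPM in CD48bright, and 0.0734 and 0 CPM in CD48dim (edgeR adjusted p for any difference = 0.00474). Both genes had their lowest levels in the CD48dim libraries.

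Markers of dendritic cells and B cells had their highest summed levels in CD41/CD9-negative, as the 4 graded genes did, but did not follow their order among the other populations. The summed level of 12 dendritic cell genes was 1356 and 1365 CPM in CD41/CD9-negative, 249.7 and 366 CPM in CD34bright, 907 and 885 CPM in CD48bright, and 323 and 316 CPM in CD48dim. Of the 12, 4 were called in the test of any difference, Itgax, Siglech, Cd209a and H2-Aa, against 2.44% of all tested genes. Siglech, Cd209a and Batf3 were at 0 counts in both CD48dim libraries. H2-Aa was highest in CD48bright, at 194 and 158 CPM, against 104 and 63.9 CPM in CD41/CD9-negative. H2-Ab1, Cd74, Xcr1 and Batf3 also had their highest mean in CD48bright, Zbtb46 in CD48dim, and the others in CD41/CD9-negative. Tcf4 was the largest part of the CD41/CD9-negative sum, at 483 and 683 CPM. The dendritic sums of CD34bright and CD48dim overlapped. The summed level of 8 B cell genes was 138 and 119 CPM in CD41/CD9-negative, 25.4 and 18.8 CPM in CD34bright, 28.4 and 36.7 CPM in CD48bright, and 63.5 and 23.6 CPM in CD48dim. Of the 8, 2 were called in the test of any difference, with Ebf1 among them, against 2.44% of all tested genes. In the B cell sum CD48dim replicate 1 lay above every CD34bright and CD48bright library. Between CD41/CD9-negative and CD48dim cells 0 of the 8 B cell genes were called by edgeR, 2 by DESeq2 and 0 by limma-voom, with 2 at an unadjusted p below 0.05 in edgeR. Genes of resident macrophages were low everywhere, at 22.2 to 71.4 CPM for 12 genes together. Of the 8 tested edgeR called Vcam1 between CD41/CD9-negative and CD48dim cells, lower in CD41/CD9-negative, against 4.02% of all tested genes called. Of these 8, 2 were called there by DESeq2 and by edgeR with replicates blocked, with 1 higher in CD41/CD9-negative each time, and 0 by limma-voom. Of the 8 tested, 3 were higher in CD41/CD9-negative than in CD48dim cells, Cd163, Adgre1 and Cd14. Cd163 had 21.0 and 29.5 CPM in CD41/CD9-negative and at most 11.4 CPM in any other library. C1qa, Marco and Mertk were at 0 counts in both CD41/CD9-negative libraries, but reached at most 0.988 CPM in any library and were not tested. Genes of stem cells were lower in CD41/CD9-negative than in CD48dim cells. The summed level of 9 such genes was 273 and 411 CPM in CD41/CD9-negative, 355 and 482 CPM in CD34bright, 344 and 430.4 CPM in CD48bright, and 1202 and 1938 CPM in CD48dim. Of the 9, 6 were called lower in CD41/CD9-negative than in CD48dim cells, against 4.02% of all tested genes called there. Procr, a surface receptor used as a stem cell marker, had 0.708 and 2.18 CPM in CD41/CD9-negative, 5.41 and 4.76 CPM in CD34bright, 3.54 and 2.19 CPM in CD48bright, and 47.7 and 54.4 CPM in CD48dim. Erythroid genes, 8 in all, summed to 27.6 and 32.2 CPM in CD41/CD9-negative, 20.3 and 37.7 CPM in CD34bright, 87.2 and 53.02 CPM in CD48bright, and 323 and 93.7 CPM in CD48dim. Of the 8, 1 was called lower in CD41/CD9-negative than in CD48dim cells, against the same 4.02% of all tested genes. DESeq2 called 3 of these 8 there, all lower. The part of dendritic, B cell, stem cell and erythroid RNA in the levels of Mpeg1, Ctss, Ly86 and F13a1 was not tested.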

How the data were processed

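Per the file headers, the authors deposited an RSEM expected count and a TPM value for each gene and library. The submitters' processing notes name STAR 2.7.2a, RSEM 1.3.2, edgeR 3.30.3 and mm10. The annotation release was not given in the sources used here. Per the labels' protocols the amplified cDNA lost its strand, so a gene and its antisense or overlapping neighbour share reads. A shorter deposited table with 9918 genes repeats these expected counts (largest difference 0), lacks Lyz2 and Cd68, and was only compared.

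The expected counts were rounded (at most 2.2% of genes in a library had a fraction). Of 24411 genes, 13177 passed filterByExpr by population (edgeR 4.0.16, R 4.3.3). CPM are relative to TMM-scaled totals of the tested genes, in libraries of 7237587 to 20632005 counts. One model of all 8 libraries (4 residual degrees of freedom) was fitted with edgeR, and its quasi-likelihood F-test gave 6 pairs and any difference, two-sided, adjusted by Benjamini-Hochberg over all 13177 genes. A standard error is the log2 fold change over the square root of F, an approximation. The alternatives were DESeq2 1.42.0, limma-voom 3.58.1, other scalings, no filter, a replicate block, the compared libraries alone, and each library left out. Same-numbered libraries deviated together (correlation 0.112 to 0.222 over the 6 pairs of populations). The labels state no shared origin, so this pairing comes from the data, and calls that the block changed are given beside the result. The fits were tested on simulated data.

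The 9 genes and 17 gene lists were chosen with earlier results of these data known. The text names all 9 genes, up to 4 genes a list with the smallest adjusted p among those called for any difference, the 10 genes nearest to the mean standardised log2 CPM (prior count 2) of the 9, and neighbours of F13a1 and Ly86. A gene that this rule names is not reported here. Other genes named (Psap, Asah1, Cd63, Clec9a, Clec4d, Tyrobp, Vcam1, Cyba, Ncf1, Cd180, Csf1r, Klf4, Ms4a4c, Itgam, Ccl9, H2-Ab1, Cd74, Xcr1, Batf3, Zbtb46, Tcf4, Cd163, Adgre1, Cd14, Lgals3bp) were chosen after their values were seen. List counts by DESeq2, by limma-voom and with the replicate block were added after seeing the data. The whole-table counts of DESeq2 and of the replicate block are given in the last section. Positions and promoters are from RefSeq GRCm38.p6, the assembly of mm10.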

Additional observations from a re-analysis of the deposited data

How the results depend on the processing

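With 2 libraries a population, low counts limit some CD48dim values: Ly86 rests there on 20 and 46 counts and Lgals3 on 115 and 0. Between CD41/CD9-negative and CD48dim cells, Mpeg1, Ctss, Ly86 and F13a1 were called under all 15 alternatives, with log2 fold changes of 6.10 to 6.67, 4.60 to 6.21, 5.29 to 7.39 and 3.44 to 3.90. The number of the 9 genes called ran from 4 to 7 when 1 library was left out, and was 6 with no filter, 6 with DESeq2, 5 with limma-voom and 4 on the compared libraries alone. For any difference it ran from 1 to 7 with a library left out.

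Against 3 called for CD34bright over CD48dim, there were 5 with no filter, 5 with DESeq2, 1 with limma-voom, 0 on the compared libraries alone and 0 to 6 with a library left out. Against 2 for CD48bright over CD48dim, there were 5, 4, 1, 0 and 0 to 5 in the same order. Against 2 for CD41/CD9-negative over CD34bright, there were 5, 5, 4, 6 and 0 to 6. Against 0 for CD41/CD9-negative over CD48bright, there were 4, 5, 2, 5 and 0 to 5. CD34bright over CD48bright gave 0 throughout. The cause of these shifts was not tested.

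Over the whole table, CD41/CD9-negative over CD48dim gave 530 calls, 1191 with no filter, 1538 with DESeq2, 152 on the compared libraries alone, and 38 to 3244 with a library left out; any difference gave 322, 1607 with no filter, 1718 with DESeq2, 166 with limma-voom and 13 to 3227. CD34bright over CD48dim gave 76, 1018 with no filter, 1288 with DESeq2, 45 with limma-voom, 0 on the compared libraries alone and 0 to 3851. CD48bright over CD48dim gave 51, 588, 759, 5, 0 and 0 to 3127 in the same order, CD41/CD9-negative over CD34bright 111, 532, 626, 146, 1124 and 0 to 713, CD41/CD9-negative over CD48bright 28, 301, 362, 38, 323 and 0 to 380, and CD34bright over CD48bright 0, 39, 37, 0, 2 and 0 to 13. Without TMM factors, CD41/CD9-negative over CD48bright gave 13, and the median log2 fold change of all genes in CD34bright over CD48dim was -0.22, against -0.07 with them.

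With the replicate block, the calls among the 9 genes and over the whole table were 5 and 764 for any difference, 5 and 965 for CD41/CD9-negative over CD48dim, 5 and 682 for CD34bright over CD48dim, 4 and 178 for CD48bright over CD48dim, 5 and 266 for CD41/CD9-negative over CD34bright, 2 and 99 for CD41/CD9-negative over CD48bright, and 0 and 0 for CD34bright over CD48bright.

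Of 561 values of single genes under alternatives, 12 changed sign, each in a gene and comparison that was not called. Over CD48dim, with each library left out in turn, Lyz2 ran from -1.718 (without CD41/CD9-negative replicate 1) to 0.224 (without CD41/CD9-negative replicate 2) in CD41/CD9-negative and from -0.841 to 0.274 in CD48bright. Clec12a ran from -0.07 to 0.946 in CD41/CD9-negative, from -0.564 to 0.452 in CD34bright and from -0.558 to 0.625 in CD48bright, where it was -0.03 without TMM factors. Cybb ran from -1.019 to 0.06 in CD48bright. Lgals3 ran from -0.545 (without CD48dim replicate 2) to 9.312 (without CD48dim replicate 1) in CD34bright, and the upper value is no bound because the CD48dim library left then holds 0 counts. All are log2 fold changes.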
